A study of Mus musculus with 14 samples.

Results

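The Hox and Cdx genes were followed in mouse embryonic stem (ES) cells that differentiated as embryoid bodies while transcription factors of the blood and endothelial lineage were switched on. The members are every gene whose symbol is Hox with a cluster letter (a, b, c or d) and a number, together with Cdx1, Cdx2 and Cdx4. Those analysed here are the 40 with a probe set of 1 symbol on the array, among 19938 genes measured in that way. They are 10 Hoxa, 9 Hoxb, 9 Hoxc, 9 Hoxd and 3 Cdx genes, each read by 1 probe set.

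Hox genes encode homeodomain transcription factors that give cells their position along the body axis. They lie in clusters, and in the embryo the genes at the 3′ end of a cluster (low paralog numbers) are switched on earlier and further forward than those at the 5′ end. Cdx factors, induced by Wnt, FGF and retinoic acid signals in the posterior embryo, act on Hox genes and are needed in mouse ES cell cultures and zebrafish embryos for the formation of blood. Retinoic acid acts directly on the early Hox genes, and Pbx and Meis proteins bind DNA together with Hox proteins.

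The study asked which genes and pathways follow the joint induction of ER71, GATA2 and Scl, which are encoded by Etv2, Gata2 and Tal1. Scl is named by the titles and genotypes only. The design text counts 3 factors but names ER71 and GATA2. The cells had been kept on PMEF feeder cells with LIF before differentiation. Doxycycline at 1 µg/ml was added from day 2 to day 3, and induced cells were collected 6 h later on day 2.25, 12 h later on day 2.5 and 24 h later on day 3. Each of these groups has a control of the same line and day that received no doxycycline. Every group holds 3 arrays except the pair of day 2.25, with 1 array each. The labels give the controls the genotype wild-type, although their source names are those of the inducible lines. Replicates 1 and 2 of each group are of the line iEGS and replicate 3 is of the line iB1. Cells that received doxycycline without the inducible factors were not analysed here, so an effect of the factors and one of doxycycline cannot be told apart.

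Etv2, Gata2 and Tal1 separated all induced arrays from all controls of their day. At 24 h Gata2 was higher by 3.95 ± 0.179 on the log2 scale (limma, mean difference ± SE, 3 arrays per group, adjusted p = 1.09e-08), Etv2 by 1.94 ± 0.192 (adjusted p = 1.47e-05) and Tal1 by 2.30 ± 0.239 (adjusted p = 2.4e-05). Adjusted p-values are from limma with Benjamini-Hochberg adjustment over all 19938 genes, and a gene was called under 0.05. Markers of ES cells and epiblast were above background in the controls, 12 of 12 in each control group, as were 12 of 13 markers of the primitive streak, where the first mesoderm arises. Replicate 3 of the induced 24 h group stood apart from the other arrays. Its median signal over 1015 olfactory receptor genes, taken here as genes that these cells do not use, was 3.72 on the log2 scale, against 2.89 to 3.36 on the other 13 arrays. Its spread of signal over all genes was the narrowest (SD 1.91). It also held the highest of the 14 values for 13 of the 40 Hox and Cdx genes (32.5%), for 58.1% of the olfactory receptor genes and for 19.2% of all genes. In bulk arrays fewer cells using a gene and less RNA per cell cannot be told apart.

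Most Hox and Cdx genes were not above background in any group. Background was set at the 95th percentile of the group means of the olfactory receptor genes, which lay between 4.25 and 4.95 across the 6 groups. By this measure 26 of the 40 genes never passed, 14 passed in at least 1 group and 5 passed in all 6 groups. In a single group 6 to 13 of the 40 were above background, against 63.6% to 72.8% of all genes other than the olfactory receptor genes. The mean signal over the 14 arrays ran from 2.68 (Cdx4) to 5.84 (Hoxb3), with a median of 3.98, against 5.56 over all genes and 3.15 over the olfactory receptor genes. All but 3 of the 40 were below the median of all genes, and the exceptions were Cdx1, Hoxb1 and Hoxb3. Signals of different probe sets depend on their probes as well as on the transcript, so they were set against background and not ranked against each other as amounts of RNA.

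**Figure D1:**
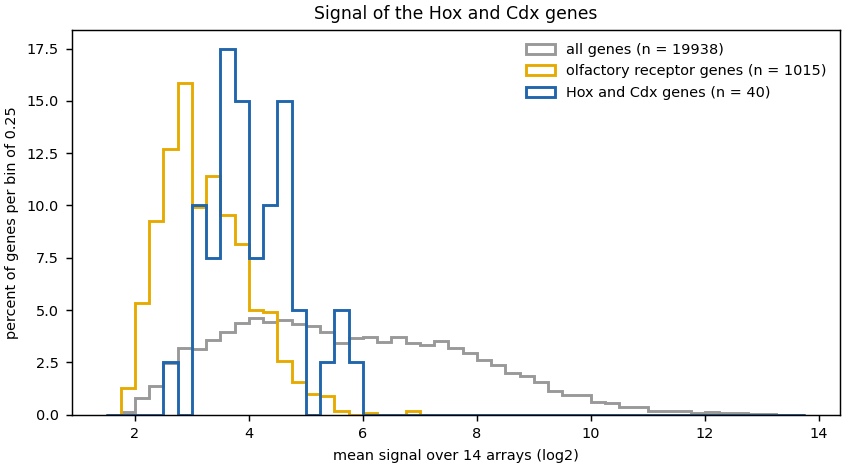
Mean log2 signal over the 14 arrays (x axis, bins of 0.25) against the percent of genes in each bin (y axis) for 40 Hox and Cdx genes, 1015 olfactory receptor genes and all 19938 genes. The Hox and Cdx genes overlap the olfactory receptor genes at the dim end, with medians of 3.98 and 3.15, and the median of all genes is 5.56.

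The 5 genes above background in all 6 groups were Cdx1, Hoxa4, Hoxb1, Hoxb3 and Hoxd9. Hoxb2 passed in 3 groups (control day 3, induced 12 h and induced 24 h), and Cdx2 passed in the 3 control groups and after 6 h of induction. The remaining 7 were Hoxa6, Hoxa7, Hoxa9, Hoxb9, Hoxd1, Hoxd11 and Hoxd13. By paralog number, 5 of 11 Hox genes numbered 1 to 4 passed in some group, as did 5 of 14 numbered 5 to 9 and 2 of 12 numbered 10 to 13, beside 2 of the 3 Cdx genes. The first of these counts includes Hoxd1, and the second includes Hoxa6, Hoxa7 and Hoxa9, which passed only on day 2.25. Not one Hoxc gene passed. The count is sensitive to the bar: with the 99th percentile of the olfactory receptor genes it was 4 in place of 14.

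In the fit of group means, no Hox or Cdx gene passed the test for an effect of induction at either replicated time. At 12 h 0 of the 40 were called, against 1.39% of all genes, and at 24 h 0 of the 40, against 5.46%. With the replicate number as a block, which pairs arrays of 1 number, Hoxb1 was called lower at 24 h (limma, adjusted p = 0.0286), among 1565 of all genes called. At an unadjusted p under 0.05 in the limma fit of group means, 1 member passed at 12 h (Hoxc4, higher), against 6.96% of all genes. At 24 h 2 members did so, Hoxb1 lower and Hoxb4 higher, against 16.1% of all genes. The 95% interval of the change lay within 2-fold in either direction (1 on the log2 scale) for all 40 genes at both times. These bounds hold for the array signal, and for genes near background RMA signals understate a change in RNA. The intervals had a median reach of 0.37 on each side, and they stayed within 0.5 on the log2 scale for 20 genes at 12 h and 16 genes at 24 h. The genes named here and below outside the 14 above background and the Cdx genes were picked after their values were seen.

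**Figure D2:**
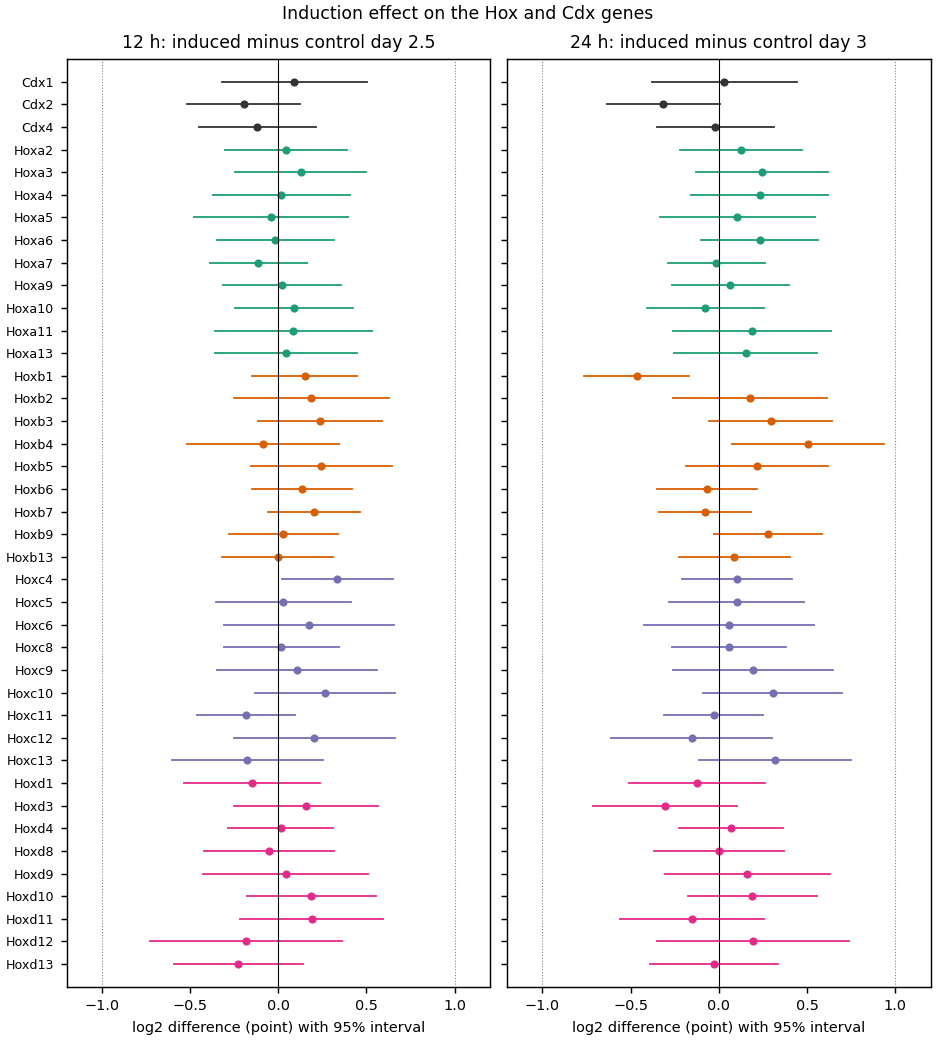
Log2 change on induction with its 95% interval (x axis) for each of the 40 genes (y axis, coloured by cluster), for 12 h against control day 2.5 (left) and 24 h against control day 3 (right), 3 arrays per group. All intervals lie between the dotted lines at -1 and 1, and those of Hoxc4 at 12 h and of Hoxb1 and Hoxb4 at 24 h leave out 0 without passing the adjusted test.

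Cdx1, which acts with Wnt and retinoic acid signals in early axial patterning, showed no separation of induced from control arrays. Its control arrays were at 5.71 on day 2.25, at 5.38, 5.82 and 5.66 on day 2.5, and at 5.52, 5.41 and 5.69 on day 3 (replicates 1, 2 and 3). Induced arrays were at 5.41 after 6 h, at 5.70, 5.91 and 5.53 after 12 h, and at 5.21, 5.97 and 5.52 after 24 h. The groups overlapped at both times, with log2 changes of 0.09 ± 0.191 at 12 h and 0.03 ± 0.191 at 24 h (limma, adjusted p = 0.999 and 0.96).

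Cdx2, a factor of trophoblast and of the posterior embryo, stayed close to background. Control signals were 4.53 on day 2.25, then 4.71, 4.52 and 4.56 on day 2.5, and 4.82, 4.66 and 4.97 on day 3. Induced signals were 4.40 after 6 h, then 4.28, 4.55 and 4.38 after 12 h, and 4.46, 4.30 and 4.75 after 24 h. In each of the 3 replicates the induced 24 h array was lower than the day 3 control of the same number, but the groups overlapped, and the change of -0.32 ± 0.149 did not pass (limma, 95% interval -0.64 to 0.00, adjusted p = 0.318). At 12 h the change was -0.20 ± 0.149 (adjusted p = 0.999). Trophoblast markers, 13 measured of 15 listed, did not move one way. At 12 h 3 were called higher (Krt18, Esx1 and Plet1) and 1 lower (Eomes), against 0.813% and 0.577% of all genes. The counts were 5 higher under the replicate block, 0 lower without replicate 1, and 0 in either direction without replicate 2 or without replicate 3. Their summed linear signal did not overlap there, at 2475 to 3666 on the control arrays of day 2.5 and 3717 to 4584 on the induced ones. That sum is weighted towards bright genes such as Krt18 and Krt8, with means of 10.7 and 10.5 after 12 h of induction. The mean log2 signal of the markers was 6.282 to 6.551 on the control and 6.553 to 6.817 on the induced arrays, a narrow gap. At 24 h 2 were called higher and 2 lower, against 2.03% and 3.43% of all genes. The sum was then 4653 to 5596 on the control arrays of day 3 and 4692 to 5901 on the induced ones, and its part in the Cdx2 signal was not tested at either time.

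Cdx4, which in mouse ES cell cultures promotes blood progenitors together with Hox genes, gave the lowest mean signal of the 40. It lay between 2.48 and 2.96 on all 14 arrays, below the median of the olfactory receptor genes in every group, and the means of the replicated groups ran from 2.64 to 2.76. Its log2 changes were -0.12 ± 0.155 at 12 h and -0.02 ± 0.155 at 24 h (limma, adjusted p = 0.999 and 0.969). A change of Cdx4 was not detectable with this probe set, which does not show that the transcript was absent.

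**Figure D3:**
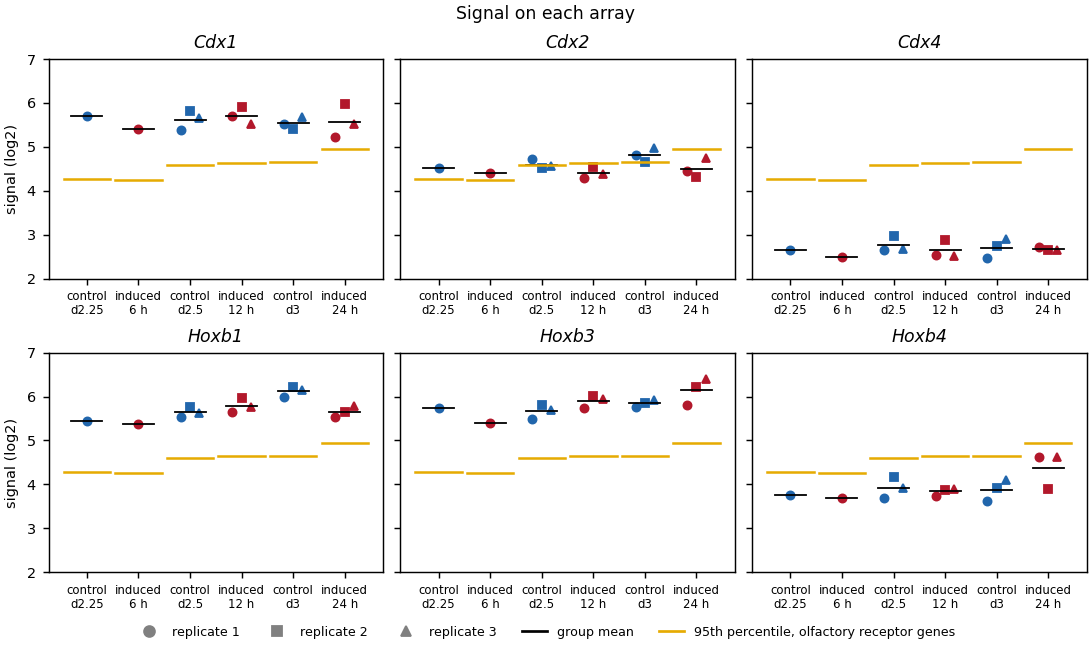
Log2 signal (y axis) on each of the 14 arrays for the 3 Cdx genes and Hoxb1, Hoxb3 and Hoxb4, by group (x axis, control blue, induced red, symbols for replicates, black lines for group means). The yellow line is the 95th percentile of the olfactory receptor genes in that group, and Hoxb1 separates the groups of day 3 while Cdx4 lies far below the line.

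Among the first paralogs, Hoxb1, an early Hox gene of the posterior streak and later of the hindbrain, came closest to a call. Control signals were 5.44 on day 2.25, then 5.53, 5.76 and 5.64 on day 2.5, and 5.99, 6.22 and 6.15 on day 3. Induced signals were 5.36 after 6 h, then 5.65, 5.97 and 5.76 after 12 h, and 5.55, 5.64 and 5.78 after 24 h. All control arrays of day 3 were thus above all control arrays of day 2.5 and above all induced arrays of day 3, while the groups of day 2.5 overlapped. The 24 h change was -0.47 ± 0.138 (1.38-fold lower, 95% interval -0.76 to -0.17), with a limma p of 0.00444 and an adjusted p of 0.0718. A limma fit that pairs control and induced arrays of the same replicate number gave an adjusted p of 0.0286. That pairing was inferred from the signals and is not stated by the sample titles. On day 3 it was not borne out for replicate 2, with a correlation of 0.157 within its number and 0.375 with another. Between the control days the signal differed by 0.48 ± 0.138 (1.39-fold higher on day 3, limma, adjusted p = 0.219). The effect at 24 h minus that at 12 h was -0.62 ± 0.195 (limma, adjusted p = 0.389). In that comparison 0 of the 40 members were called, against 0.426% of all genes, and Hoxb1 was the only one at an unadjusted p under 0.05, against 5.71% of all genes. Hoxd1, the other first paralog measured, showed -0.15 ± 0.18 at 12 h and -0.13 ± 0.18 at 24 h.

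The sequences around the start of Hoxb1, Hoxb4 and Cdx2 are shown because these members lay furthest from 0 at 24 h among the Hoxb and Cdx genes. Each runs 5′ to 3′ on the gene's strand over 300 bases around the start, from RefSeq on GRCm38.p6, and capitals mark GGAAG, the core of many ETS sites, on either strand (CTTCC on the strand printed). They lie at chr11:96365508-96365807 (plus strand), chr11:96318017-96318316 (plus strand) and chr5:147307200-147307499 (minus strand).
Hoxb1: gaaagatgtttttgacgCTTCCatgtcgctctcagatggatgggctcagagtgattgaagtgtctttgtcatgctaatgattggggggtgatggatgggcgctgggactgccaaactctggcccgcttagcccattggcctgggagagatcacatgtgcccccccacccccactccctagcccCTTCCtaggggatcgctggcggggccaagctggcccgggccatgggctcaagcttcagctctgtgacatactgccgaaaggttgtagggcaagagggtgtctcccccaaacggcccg
Hoxb4: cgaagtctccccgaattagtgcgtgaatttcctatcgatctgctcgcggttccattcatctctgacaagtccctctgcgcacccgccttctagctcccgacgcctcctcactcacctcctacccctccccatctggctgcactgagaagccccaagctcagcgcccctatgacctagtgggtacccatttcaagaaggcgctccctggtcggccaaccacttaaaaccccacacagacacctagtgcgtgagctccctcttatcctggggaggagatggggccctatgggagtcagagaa
Cdx2: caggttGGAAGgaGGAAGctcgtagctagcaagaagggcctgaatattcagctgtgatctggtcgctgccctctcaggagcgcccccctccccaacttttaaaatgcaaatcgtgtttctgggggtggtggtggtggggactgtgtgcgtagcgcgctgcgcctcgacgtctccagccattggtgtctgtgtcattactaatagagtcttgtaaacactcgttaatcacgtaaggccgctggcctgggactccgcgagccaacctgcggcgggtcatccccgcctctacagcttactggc
Hoxb1 and Cdx2 held 2 copies of GGAAG each and Hoxb4 none. In all, 25 windows of 23 members were found in the table, and 12 of them (48%) held GGAAG on either strand, against 71.4% of all 32851 windows. The GATA motif AGATAA was in 0 of the 25, against 11.2% of all windows, so no overlap between it and GGAAG arose. The E-box CANNTG, bound by factors of the Scl family, was in 19 of the 25 (76%), against 72.3%, and TTTAT, the core of Cdx sites, was in 8 (32%), against 40%. A match is a description of the letters and not a site in use.

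Among the other low paralogs, Hoxb3 was above the median of all genes, with control signals of 5.76, 5.86 and 5.92 on day 3 and 5.81, 6.22 and 6.39 after 24 h of induction. The groups overlapped by 1 induced array, and the change of 0.29 ± 0.163 did not pass (limma, adjusted p = 0.411). Hoxb4, which expands blood stem cells when overexpressed, was at 3.63, 3.91 and 4.09 on the day 3 control arrays and at 4.62, 3.90 and 4.62 after 24 h. Replicates 1 and 3 of the induced group were above all controls and replicate 2 was among them, for a change of 0.51 ± 0.2 (limma, adjusted p = 0.212). With replicate 2 of the 24 h induced arrays left out its adjusted p was 0.0317, but the group means of Hoxb4 were below background in all 6 groups. Hoxa4 changed by 0.02 ± 0.181 at 12 h and 0.23 ± 0.181 at 24 h, and Hoxb2 by 0.19 ± 0.204 and 0.18 ± 0.204, none of them past the test. Hoxc4 had the lowest adjusted p at 12 h, at 0.626 for a change of 0.33 ± 0.146, from signals of 3.18, 3.22 and 2.92 in controls and 3.66, 3.28 and 3.38 in induced cells, all below background.

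The middle and posterior paralogs, which specify trunk, limb and tail levels, showed no call either. Hoxa9 and Hoxa7, known for roles in blood progenitors and leukaemia, changed by 0.07 ± 0.155 and -0.01 ± 0.128 at 24 h. Hoxa6 changed by 0.23 ± 0.155, Hoxb9 by 0.28 ± 0.144 and Hoxd9 by 0.16 ± 0.217 (limma, adjusted p = 0.513, 0.369 and 0.765). Hoxd11 and Hoxd13, genes of the distal limb and the tail end, changed by -0.15 ± 0.19 and -0.03 ± 0.17. At 24 h the median log2 change was 0.13 over the paralogs 1 to 4, 0.084 over 5 to 9 and 0.12 over 10 to 13.

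Full separation of the 3 induced from the 3 control arrays was seen for few members. At 12 h it was found for 3 of the 40 (Hoxb7, Hoxc4 and Hoxd10, all higher), against 14.5% of all genes. At 24 h it was found for 3 (Hoxa6 and Hoxc10 higher, Hoxb1 lower), against 18.5% of all genes. Both counts were a smaller share of the members than of all genes. Of the 1015 olfactory receptor genes, 61 separated at 12 h and 70 at 24 h, shares near those of the members.

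Over the 40 genes the median change at 24 h was 0.095 on the log2 scale, with 27 genes above 0, against -0.0040 over all genes and 0.20 over the olfactory receptor genes. With the array that stood apart left out, the medians were 0.0044 for the members, with 21 above 0, and 0.045 for the olfactory receptor genes, and 0 members were called. At 12 h the median was 0.042 over the members and 0.028 over the olfactory receptor genes. Centring each array on the olfactory receptor genes, an alternative added after the data were seen, moved the median of all genes at 24 h to -0.23 and that of the members to -0.13, with 8 of 40 above 0, so the sign of the members' median depends on the scaling. Relative to all genes it lay higher under both scalings. The members' spread between replicates was like that of all genes, with median SDs of 0.144 to 0.246 per group against 0.147 to 0.255.

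At 6 h, with 1 array per group and hence no test, 0 of the 40 genes differed by 2-fold or more, against 0.356% of all genes. The differences ran from -0.47 (Hoxc10) to 0.62 (Hoxd13), with a median of -0.07. Hoxb1 differed by -0.07, Cdx1 by -0.30, Cdx2 by -0.13 and Cdx4 by -0.17.

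The passage of time in the cultures called no member. Between control day 2.5 and control day 3, 0 of 40 passed, against 0.757% of all genes, and the arrays separated for 3 (Hoxb1 and Hoxb7 higher on day 3, Hoxc8 lower), against 13.6%. At an unadjusted p under 0.05, 1 member passed (Hoxb1), against 6.56%. Between induced 12 h and induced 24 h, 0 of 40 passed, against 1.81%, and the arrays separated for 3 (Hoxb2 and Hoxb4 higher at 24 h, Hoxb7 lower), against 15.4%. At an unadjusted p under 0.05, 1 member passed (Hoxb4), against 12.1%. All 40 intervals again lay within 2-fold in both comparisons. Both comparisons share their arrays with the induction effects.

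The lines gave no call either. Replicate 3, the only one of the line iB1, was compared with replicates 1 and 2 of iEGS in a limma fit with the line as an added term. Between the lines 0 of the 40 members were called, against 0% of all genes, and 3 were at an unadjusted p under 0.05, against 7.66% of all genes. These were Hoxa4 (0.28 on the log2 scale) and Hoxc13 (0.37), both higher in iB1, and Hoxd1 (-0.27), lower. The lowest adjusted p was 0.630. A difference of the effect of induction between the lines was called for 0 members, against 0% of all genes. The line, the replicate and its experiment cannot be told apart here.

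Some genes of the same pathways as the members passed the test, and most did not. Of the cofactors that bind with Hox proteins, 8 of 9 listed were measured. At 24 h 2 fell and 1 rose, against 3.43% of all genes called lower and 2.03% called higher. Meis2, a cofactor also used outside Hox complexes, fell from 7.16, 7.21 and 7.68 on the control arrays to 5.17, 5.16 and 5.32 after 24 h. The groups lay far apart, and the change was -2.13 ± 0.193 (limma, adjusted p = 6.44e-06), following -1.35 ± 0.193 at 12 h (adjusted p = 0.00135, and 0.0572 without replicate 2). Pbx3, a partner of Hox proteins, fell by 0.86 ± 0.153 at 24 h (adjusted p = 0.0028), a call lost without replicate 2 (0.0913) or replicate 3 (0.0509). Meis1, needed for blood stem cells and a partner of Hoxa9 in leukaemia, rose by 0.59 ± 0.156 (adjusted p = 0.04) from signals that were not above background in any group, and the call was lost without any 1 of the replicates (0.112 to 0.401).

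Part of the signals and factors known to act upstream of Cdx and Hox genes in the posterior embryo fell at 24 h. Of 20 listed, 18 were measured, and 9 fell while 1 rose, against 3.43% of all genes called lower and 2.03% called higher. Sp5, a target and mediator of Wnt signals, went from 8.70, 8.83 and 8.55 in day 3 controls to 5.35, 5.99 and 5.64, a change of -3.03 ± 0.206 (limma, adjusted p = 5.22e-07). The ligands Wnt8a (-2.16 ± 0.202) and Wnt5a (-1.80 ± 0.212) and the Wnt effector Lef1 (-1.84 ± 0.193) fell with it, as did Wnt3, Fgf8, Nodal, Tbx6 and Msgn1. Bmp4, a mesoderm-inducing ligand that promotes blood formation, rose by 1.49 ± 0.154 (adjusted p = 2.2e-05). At 12 h 4 had fallen (Wnt8a, Fgf8, Sp5 and Nodal) and 2 had risen (Bmp4 and Fgf3), against 0.577% and 0.813% of all genes. Without replicate 3 these counts were 1 and 1, and without replicate 2 the falls were 2. Wnt8a was already at 5.22 against 6.95 on the arrays of 6 h. Between the control days 6 of the 18 rose, against 0.562% of all genes, and 0 fell (0 rises without replicate 2 or without replicate 3). Markers of the primitive streak moved the same way: 11 of 13 measured fell at 24 h, against the same 3.43% of all genes. Wnt3, Fgf8 and Tbx6 are on both lists and count among the falls of each. The summed linear signal of the streak markers was 4877 to 5880 on the control and 659 to 792 on the induced arrays. The part of this loss of streak markers in the fall of the posterior signals was not tested.

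In the retinoic acid pathway 18 of 19 genes were measured. At 24 h 5 fell and 0 rose, against 3.43% of all genes called lower and 2.03% called higher. Cyp26a1, which degrades retinoic acid in the posterior embryo, was at 7.27, 5.80 and 6.71 in controls of day 2.5 and at 8.94, 8.45 and 8.72 on day 3, but at 6.69, 6.42 and 6.40 after 24 h of induction. Its fall at 24 h was -2.20 ± 0.29 (limma, adjusted p = 0.000213), and its rise between the control days was 2.11 ± 0.29 (adjusted p = 0.00229, and 0.166 without replicate 3). Crabp1, a carrier of retinoic acid, fell by 2.04 ± 0.184 (adjusted p = 6.24e-06), and Rxrg, Crabp2 and Cyp26c1 also fell. Leaving out replicate 2 or replicate 3 left 3 and 2 of the 5. Aldh1a2, which makes retinoic acid in early mesoderm, was not above background in any group and changed by -0.32 ± 0.144 (adjusted p = 0.289).

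**Figure D4:**
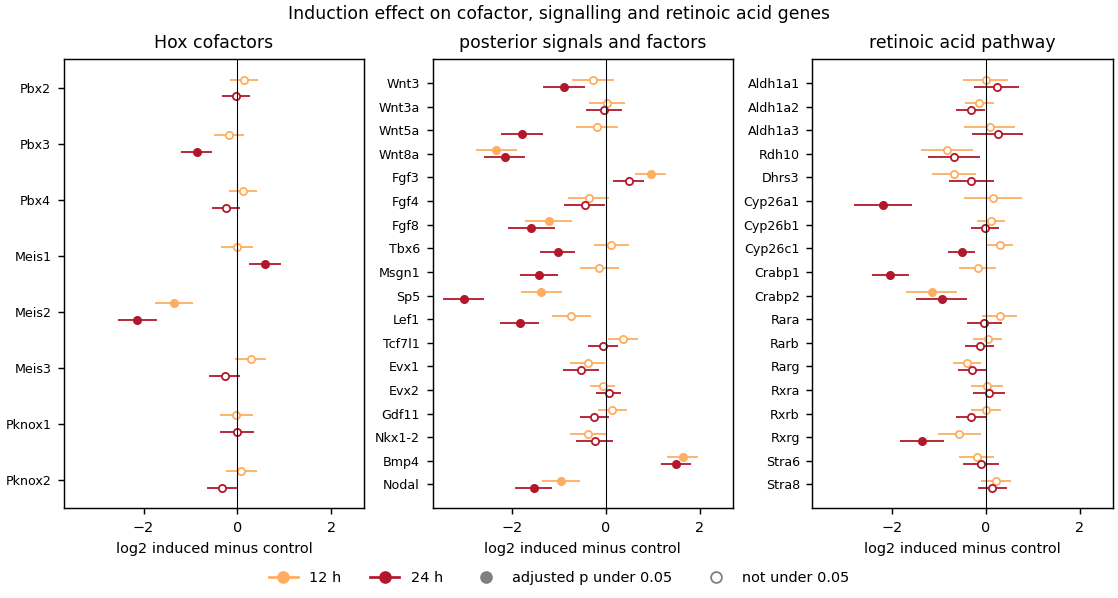
Log2 change on induction with its 95% interval (x axis) at 12 h and 24 h for the measured Hox cofactors, the posterior signals and factors, and the retinoic acid pathway (y axis), with filled points for an adjusted p under 0.05. Falls such as Sp5 (-3.03) and Cyp26a1 (-2.20) at 24 h exceed any change among the Hox and Cdx genes, which ran from -0.47 to 0.51.

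Of the chromatin regulators that act on Hox clusters, most did not pass the test. Of 25 polycomb genes measured of 27 listed, 3 rose at 24 h (Pcgf5 by 1.59 ± 0.153, Phf19 and Ezh1), against 2.03% of all genes called higher. The 2 that fell were Phc1, by 1.44 ± 0.17, and Pcgf2, against 3.43% of all genes called lower, and the replicate block called 4 falls. Without replicate 2 or without replicate 3, 1 rise and 1 fall were called in each case. Of 13 trithorax genes and H3K27 demethylases, 0 rose and Kdm6b, a demethylase known to act at Hox genes, fell (0 without replicate 2 or replicate 3), a share near the 5.46% of all genes called at 24 h. Of 29 genes inside or beside the clusters 22 were measured, and the neighbour of the Hoxb cluster Skap1, an adaptor of immune cells, was the only one called at 24 h, again a share near that 5.46%, with 2 falls called in addition under the replicate block. Skap1 went from 4.01, 4.12 and 4.11 to 5.58, 5.66 and 5.92, a rise of 1.64 ± 0.153 (limma, adjusted p = 8.64e-06), while 0 of the 9 Hoxb genes were called in the same fit. The microRNA genes Mir10a, Mir10b, Mir196a-1, Mir196a-2 and Mir196b of the Hox clusters were not above background in any group, and neither was the long noncoding RNA gene Hottip of the Hoxa cluster. Mir615 of the Hoxc cluster was above background, with means of 6.12 on the induced and 6.13 on the control arrays at 24 h, and was not called.

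Part of the genes listed as targets or partners of Hox factors in blood and endothelium rose, and the part of Hox factors in this was not tested. Of 13 measured, 5 rose at 12 h, against 0.813% of all genes, and 8 at 24 h, against 2.03%, and 0 fell. The endothelial receptor Tek rose by 4.10 ± 0.296, Tal1 as given above, the blood factor partner Lmo2 by 2.04, and Runx1, needed for blood stem cells, by 1.72 ± 0.188 at 24 h. Without replicate 2 the 24 h count was 4 and without replicate 3 it was 5. Tal1 is both on this list and among the induced factors, and Meis1 is both on this list and among the cofactors.

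The feeder cells used before differentiation are fibroblasts, a cell type that uses many Hox genes. Of 21 fibroblast markers listed 20 were measured, 10 to 16 of them above background in a group. At 12 h 0 were called (1 higher under the replicate block), but their summed linear signal did not overlap between the groups, at 814 to 989 on the control and 1095 to 1246 on the induced arrays. That sum is weighted towards bright genes such as Thy1, with a mean of 8.89 after 12 h of induction. The mean log2 signal of the markers overlapped, at 4.79 to 5.03 on the control and 4.95 to 5.07 on the induced arrays. Their median log2 change was 0.012. At 24 h Thy1 was called higher and Twist1 lower (1 call and 0 calls without replicates 2 and 3), against 2.03% and 3.43% of all genes. The summed linear signal then overlapped between the groups, at 834 to 931 on the control and 860 to 1117 on the induced arrays. The collagen gene Col1a1 was between 4.90 and 5.87 on all arrays and changed by 0.16 ± 0.208. The part of feeder cells in the Hox signals was not tested.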

How the data were processed

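RNA of 14 samples was amplified as cDNA and measured on Affymetrix arrays, as the labels' protocols state. Log2 signals of 35556 probe sets were deposited. The submitters' processing notes name RMA and Affymetrix Expression Console, with no version, and no genome build of the array is named. RMA pulls arrays towards a common distribution and compresses low signals. Arrays carry no counts, and their number limits the precision. Of the probe sets, 21789 had 1 gene symbol, 1621 several, and 12146 were not listed. The probe set of highest mean stood for a gene, which left 19938 genes.

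One limma model (version 3.58.1, R 4.3.3) of group means covered the 12 arrays of the 4 replicated groups (8 residual and 6.05 prior degrees of freedom), with Benjamini-Hochberg adjustment over all genes. The fit was tested on simulated data. Errors are standard errors, with 3 arrays per group. Linear sums add 2 to the power of the log2 signal.

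The design text speaks of independent experiments. Deviations from the group means were shared by arrays of 1 number, with correlations across genes of 0.573, 0.344 and 0.262 on day 2.5 and 0.517, 0.157 and 0.261 on day 3, so the numbers were taken to pair arrays within a day. On day 3 the 0.157 of replicate 2 lay below its value of 0.375 with another number, so the pairing, and the blocked call of Hoxb1, rest on less there. Across days replicate 2 and replicate 3 gave values down to -0.0047, so the block, which spans both days, is weaker there.

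The named genes are the Cdx genes, members called or above background, at most 4 called members of each list with the largest change, and the induced factors; others were chosen after their values were seen. The members and the 14 lists (219 entries, 205 symbols, 189 measured) were chosen with earlier results of these data known. Promoter sequences are from RefSeq.

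The following were tried as alternatives: the line as a covariate, the replicate block, repeated quantile normalization, centring on each array's median, leaving out dim genes (below the 40th percentile), other treatments of probe sets, a trended prior, array weights, only the groups compared, leaving out arrays, and, chosen after seeing the data, centring on the olfactory receptor genes.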

Additional observations from a re-analysis of the deposited data

How the results depend on the processing

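Of 265 recomputed counts of members, 257 stayed within 1.5 times their value above and 8 moved. Except for the count above background, all had been 0 in the main fit, and such a count stayed only where it was 0 again. With dim signals a repeated 0 is likely in any case, so the 257 say little about how firm the results are. Array weights, whose estimation stopped before convergence, called 1 member higher at 12 h (Hoxc4, adjusted p = 0.00837), and between the control days 1 higher (Hoxb1, 0.00386) and 1 lower (Hoxc8, 0.038). Leaving out 1 array or replicate gave 0 to 1 members called higher at 24 h (1, Hoxb4, with replicate 2 of the 24 h induced arrays left out) and 0 in every other count. The replicate block called 1 member lower at 24 h (Hoxb1, adjusted p = 0.0286), and so did the fit without dim genes (1, Hoxb1, 0.0393), in which 4 of the 40 members remained. Over 26 alternatives the adjusted p of Hoxb1 at 24 h ran from 0.0286 to 0.503, and its change from -0.69 to -0.38. The block changed no other call of a member. With the 99th percentile as the bar 4 members were above background, as they were with the median of all genes (4), against 14. Over all genes the block called 441 at 12 h and 163 for the change of the effect, against 277 and 85, and 344 and 742 between the control and the induced groups, against 151 and 360. Array weights called 1885 at 12 h and 1350 between the control days, and 467 at 24 h, against 1088 there. Leaving out replicate 2 brought the calls to 80 at 12 h and 392 at 24 h, and leaving out replicate 1 of the 24 h induced arrays alone to 1889 at 24 h. Centring on the olfactory receptor genes called 67 at 12 h and 434 at 24 h, with 0 members. Of 5463 recomputed changes of single genes, 457 lost their call, 6 gained one and 0 of those called reversed, while a change that was never called was not followed for its sign. The causes were not tested. Dim signal limits all of these counts: 36 of the 40 members lie below the 40th percentile of signal, where a change in RNA is understated.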

Other observations

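Over the 14 arrays a member's signal ranged by 0.356 (Hoxa7) to 1.28 (Hoxb2) on the log2 scale, with a median range of 0.778, against 0.832 over all genes. Ranges over 1 were found for 6 members, Hoxa4, Hoxb2, Hoxc6, Hoxc9, Hoxc10 and Hoxd12. The ParaHox genes Gsx1, Gsx2 and Pdx1, relatives of the Cdx genes, gave 0 calls of 3 at 12 h and at 24 h. Neuroectoderm markers, 11 measured, gave 0 calls at 12 h and 1 at 24 h (Nes, lower), against 5.46% of all genes called at 24 h. Their summed linear signal was 508 to 556 on the day 3 control arrays and 416 to 491 on the induced ones. Their mean log2 signal overlapped, at 5.05 to 5.26 and 4.93 to 5.19.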
